A study of Mus musculus with 28 samples.

Results

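Ccl2, Ccl7 and Ccl8 encode monocyte chemoattractants, and Ccr2 encodes the chemokine receptor that monocytes use to leave the bone marrow. The 4 genes were taken by name from the 72 named targets of a NanoString panel, on which probes with barcodes are counted after the cDNA has been amplified with target-specific primers. Donor monocytes, wild type (WT) or Trem1-/- on the C57BL/6 background, were transferred into C57BL/6 recipients that lacked CCR2. Trem1 encodes a receptor on myeloid cells that amplifies inflammatory signals. The recipients' small intestine had been left alone (control) or handled surgically 1 day before the transfer to inflame it (inflamed). At day 1 after the transfer, 100 cells of donor origin were collected from each recipient's small intestine by sorting. WT cells came from 5 control and 5 inflamed recipients, and Trem1-/- cells from 5 control and 7 inflamed recipients. Primary bone marrow monocytes of 3 non-manipulated mice of each genotype were measured as well, and how many such cells a sample held is not stated in the sources used here. The intestinal cells of all 4 groups had therefore passed through CCR2-/- hosts, while their own Ccr2 was intact. Whether recipients shared a donor pool was not given either, so the p-values measure the spread between these samples.

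CCL2 and CCL7 bind CCR2 on monocytes and draw them from the marrow into the blood and on into inflamed tissue. Mouse CCL8 acts chiefly on another receptor, CCR8. Monocytes that have entered a tissue can make these ligands themselves and commonly lose CCR2 as they mature into macrophages. In the RefSeq annotation of GRCm38.p6, the 3 ligand genes lie in 1 cluster on chromosome 11, in the order Ccl2, Ccl7, Ccl11, Ccl12 and Ccl8, and Ccr2 lies on chromosome 9. The panel's targets were positions 416 to 515 of transcript NM_011333.3 for Ccl2, 216 to 315 of NM_013654.2 for Ccl7, 151 to 250 of NM_021443.2 for Ccl8 and 2966 to 3065 of NM_009915.2 for Ccr2. Ccl8 was the ligand of the cluster that stayed level while Ccl2 and Ccl7 rose, and the 250 bases before its start site (RefSeq, GRCm38.p6, chr11:82114935-82115184, plus strand) read, 5′ to 3′, with matched motifs in capitals:
Ccl8: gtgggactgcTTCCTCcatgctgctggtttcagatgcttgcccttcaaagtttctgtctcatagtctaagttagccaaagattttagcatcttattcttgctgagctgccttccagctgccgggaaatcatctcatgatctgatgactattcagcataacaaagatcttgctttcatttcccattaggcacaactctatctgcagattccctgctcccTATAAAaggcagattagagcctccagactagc
The letters TATAAA were matched at position -32 from the start site on the plus strand, and 12.4% of 32851 upstream windows of the same length held them on either strand. The PU.1 core letters GAGGAA were matched on the minus strand at position -240, and 23.3% of the windows held them. The window held no match, on either strand, to the AP-1 letters TGANTCA (in 6.75% of windows), the C/EBP letters TTNNGNAA (36.8%) or the NF-kappaB motif (3.9%). These are matches of letters and not sites of binding. No upstream window of Ccl2 or Ccl7 was available here, so the ligands were not compared. Whether these letters go with the level of Ccl8 was not tested.

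Levels are normalised counts, scaled to Actb, Gapdh and Rpl19, and are compared between samples for 1 probe and never between probes. Total counts per sample ran from 720570 to 1625959, and background limits from 16.7 to 59.0 counts. Of 9 monocyte markers 7 had values, of 6 macrophage markers 4, and of 6 dendritic cell markers 4. The panel gave no values for markers of neutrophils, T cells, B cells or epithelium. The 6 monocyte genes other than Ccr2 summed to between 108563 and 347150 normalised counts in every sample. Trem1 had values only in the 10 intestinal samples of WT donors, so the genotype could not be checked with it. In 14 samples the deposited counts had been multiplied, by about 4/3 in 13 and by 2 in WT inflamed mouse 5, for a reason that the sources used here do not state. The multipliers were divided out of the gene counts, and values within the unmultiplied and the 4/3 samples (the 2 classes) are given beside the comparisons.

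Ccl2 and Ccl7 were far higher in cells from the inflamed intestine in both genotypes, Ccl8 stayed near its control level, and Ccr2 was lower. In WT cells 2 members rose, 1 fell and 1 did not pass the test (adjusted p under 0.05), where 47.3% of the 55 genes tested passed in either direction, 25.5% higher and 21.8% lower. The counts of members were the same in Trem1-/- cells, where 49.1% of all genes passed, 21.8% higher and 27.3% lower. The groups did not overlap for Ccl2 and Ccl7 in either genotype, nor for Ccr2 in WT cells. Over all genes, 34.5% had groups without overlap in WT cells and 30.9% in Trem1-/- cells. In sorted cells measured in bulk, fewer cells that make a transcript and less of it per cell cannot be told apart.

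**Figure D1:**
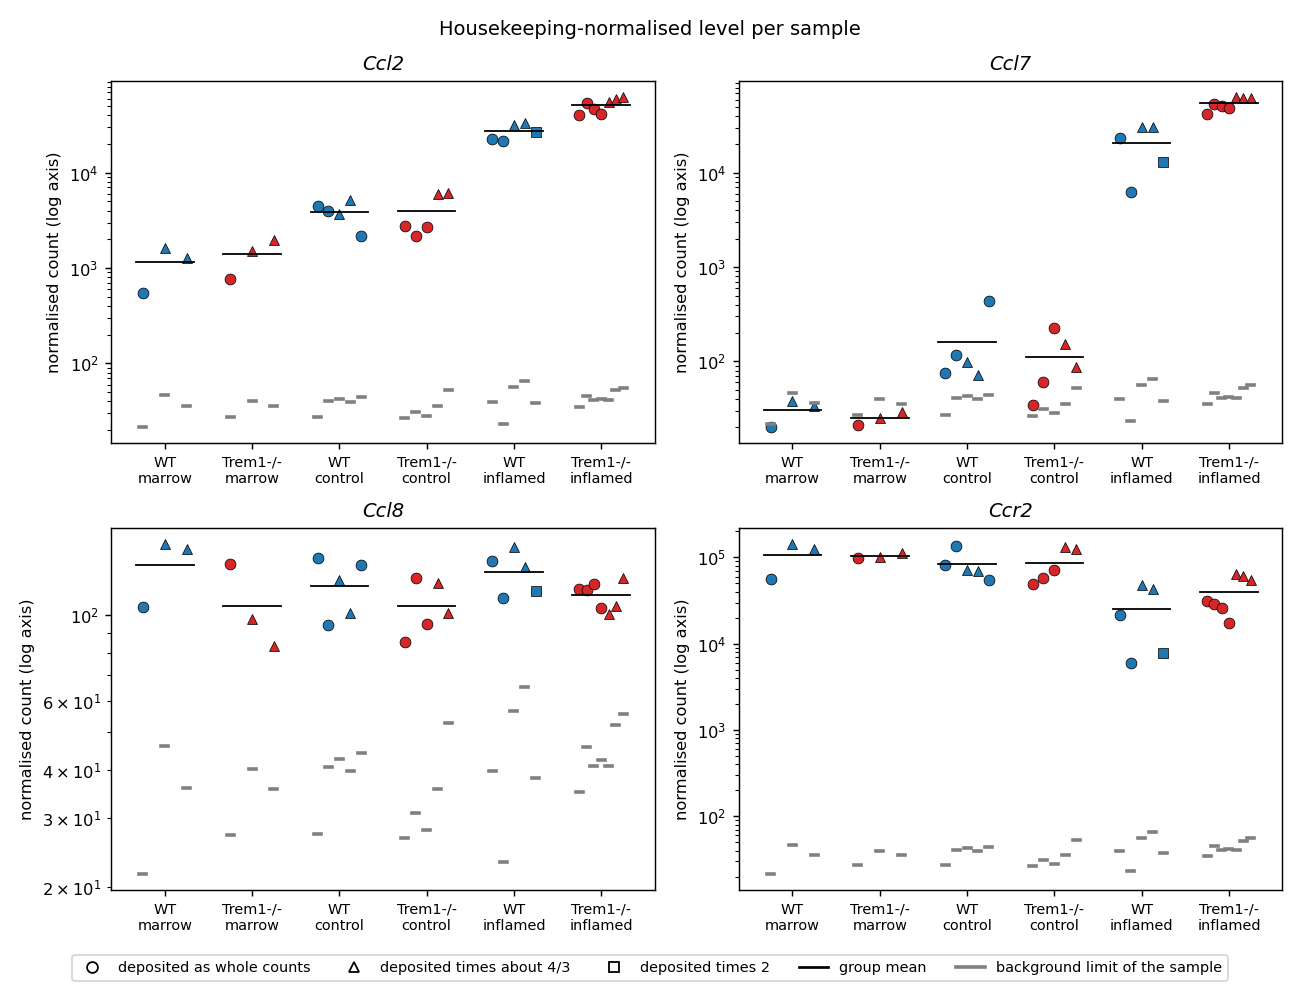
Housekeeping-normalised count of each gene (log axis) in each sample, by group, with 1 point per sample, black lines for group means and grey bars for each sample's background limit; the symbol shows how the counts had been deposited. Ccl2 and Ccl7 of the inflamed groups lie above all other groups, Ccl8 stays between 83.5 and 152, and the means of Ccr2 are lowest in the inflamed groups.

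Ccl2, the main ligand of CCR2, lay at 4498, 3949, 3731, 5124 and 2160 normalised counts in WT control mice 1 to 5. In the WT inflamed mice it lay at 22813, 21715, 31378, 33187 and 26482. The lowest inflamed sample was thus above the highest control. The means were 3893 ± 1108 (SD, n = 5) and 27115 ± 5077 (n = 5), a log2 fold change of 2.80 (adjusted p = 7.63e-08, SE 0.30, 95% interval 2.18 to 3.42). The unmultiplied samples alone gave 2.65 and the 4/3 samples alone 2.87, and both passed.

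In Trem1-/- control mice 1 to 5, Ccl2 lay at 2793, 2185, 2707, 5994 and 6177 normalised counts. In the 7 Trem1-/- inflamed mice it ran from 40313 to 61548 with a median of 54275. Every inflamed sample was again far above every control, and the 2 highest controls were the 4/3 samples. The means were 3971 ± 1945 (n = 5) and 51174 ± 8404 (n = 7), a log2 fold change of 3.69 (adjusted p = 6.6e-10, SE 0.30, 95% interval 3.06 to 4.32). It was 4.16 within the unmultiplied and 3.27 within the 4/3 samples, both past the threshold.

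Ccl7, a second ligand of CCR2, was close to background in control cells. WT control mice 1 to 5 had 74.6, 116, 99.0, 71.3 and 442 normalised counts. The inflamed WT mice had 23582, 6254, 30983, 30490 and 13002. Control mouse 5 stood apart at 442, yet the lowest inflamed sample was far above it. The means were 161 ± 158 (90.2 without WT control mouse 5) and 20862 ± 10928 (n = 5 each), and the log2 fold change was 7.02 (adjusted p = 3.95e-08, SE 0.67, 95% interval 5.63 to 8.42). Without mouse 5 it was 7.85, within the unmultiplied samples 6.15 and within the 4/3 samples 8.49, all past the threshold.

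Trem1-/- control mice 1 to 5 had 34.1, 60.2, 228, 153 and 87.7 normalised counts of Ccl7. The 7 inflamed Trem1-/- mice ran from 42205 to 63010 with a median of 54201, so the inflamed samples lay close together and far above the controls. The means were 113 ± 78.2 (n = 5) and 54747 ± 7921 (n = 7), a log2 fold change of 8.92 (adjusted p = 6.6e-10, SE 0.72, 95% interval 7.42 to 10.4). It was 8.82 in the unmultiplied and 9.02 in the 4/3 samples. Before scaling, the 10 controls of both genotypes had 28 to 342 counts of Ccl7 against background limits of 20.6 to 47.5. All 10 were above their own limit, but the size of the change rests on these low values.

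Ccl8, the third ligand, was detected at a low level in all groups and differed little between them. WT control mice 1 to 5 had 140, 94.2, 123, 101 and 134 normalised counts. The inflamed WT mice had 138, 111, 150, 133 and 116. These ranges overlapped almost wholly, with means of 119 ± 20.2 and 129 ± 16.04 (n = 5 each) and a log2 fold change of 0.13 (adjusted p = 0.533, 95% interval -0.21 to 0.46). It was 0.02 in the unmultiplied and 0.33 in the 4/3 samples.

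In Trem1-/- controls Ccl8 lay at 85.2, 125, 95.1, 121 and 101 normalised counts, and in the inflamed mice between 101 and 125 with a median of 116. The inflamed range lay inside the control range, and the log2 fold change was 0.10 (adjusted p = 0.651, 95% interval -0.21 to 0.41). The unmultiplied samples gave 0.17 and the 4/3 samples -0.01. The sign of both differences turned with TMM, DESeq2 or total-count scaling or without Actb. In the authors' normalised values Ccl8 was past the threshold in Trem1-/- cells, at 0.98 (adjusted p = 0.0409), where the median of all genes was 1.01. All 28 samples lay above their background limit for Ccl8, at 70 to 221 counts.

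Ccr2, the receptor, fell in the inflamed intestine in WT cells. WT control mice 1 to 5 had 82537, 137156, 71435, 69014 and 54844 normalised counts. The inflamed WT mice had 21620, 6000, 47399, 42716 and 7783. All 5 inflamed samples were below all controls, but they were spread widely, with the 4/3 samples (mice 3 and 4) highest. The means were 82997 ± 31840 and 25104 ± 19264 (n = 5 each), a log2 fold change of -1.73 (adjusted p = 0.0078, SE 0.51, 95% interval -2.78 to -0.67). Unmultiplied samples alone gave -2.73 (adjusted p = 0.00182), and it was past the threshold too within the 4/3 samples, at -0.64 (adjusted p = 0.0136).

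In Trem1-/- controls Ccr2 lay at 49468, 58238, 72146, 130843 and 125551 normalised counts. The inflamed mice had 30988, 28692, 25764, 17227, 63480, 60398 and 54532, with a median of 30988. The groups overlapped, since the 3 highest inflamed samples lay inside the control range. The means were 87249 ± 38290 (n = 5) and 40154 ± 18747 (n = 7), a log2 fold change of -1.12 (adjusted p = 0.045, SE 0.45, 95% interval -2.06 to -0.18). The 3 high inflamed samples were the 4/3 samples, at 54532 to 63480 against 17227 to 30988 in the 4 unmultiplied ones, and the 2 high controls were 4/3 samples too. Within the unmultiplied samples the change was -1.22 (adjusted p = 0.0319) and within the 4/3 samples -1.11 (adjusted p = 0.000279).

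The call of Ccr2 in Trem1-/- cells lay near the threshold. It ended without Trem1-/- control mouse 3, 4 or 5 (-1.18, -0.93 and -0.95 on the log2 scale) and without Trem1-/- inflamed mouse 1, 2, 3 or 4 (-1.07, -1.05, -1.04 and -0.99). It also ended with scaling to the positive control probes (-0.66, adjusted p = 0.421), in the authors' normalised values (-0.27, adjusted p = 0.719), without Gapdh or Rpl19 and with limma. In WT cells it ended with positive-control scaling (-1.33, adjusted p = 0.109) and in the authors' values (-1.55, adjusted p = 0.102), and was kept without each mouse in turn.

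Dendritic cell markers were mostly lower in the inflamed intestine too. The 4 with values (Ccr7, a chemokine receptor of migrating dendritic cells, the integrin Itgax, the transcription factor Irf4 and the MHC class II chain H2-Ab1) summed to 101213 to 165233 normalised counts in WT controls and 5189 to 71355 in WT inflamed samples. In Trem1-/- cells the sums were 64810 to 148002 in controls and 11151 to 39020 in inflamed samples. Flt3 and Zbtb46, markers that define dendritic cells more strictly, had no values. Of the 4 genes with values, 3 were called lower in WT cells and 4 in Trem1-/- cells. H2-Ab1 weighs most in the control sums, with 87587 to 159722 normalised counts in WT and 58646 to 141109 in Trem1-/- controls. The 4 macrophage markers summed to 6105 to 23527 in WT controls and 2152 to 22073 in WT inflamed samples, and to 3257 to 30824 and 6899 to 28239 in Trem1-/- cells, so the states overlapped. Of the 4 macrophage markers, 1 was called lower in WT cells, and 1 higher and 1 lower in Trem1-/- cells. Of the 6 monocyte genes other than Ccr2, 1 was called higher and 1 lower in WT cells. In Trem1-/- cells 1 of these was called higher and 2 lower. The part of cell composition in the lower Ccr2 was not tested.

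Ratios of 2 probes within a sample do not depend on the scaling, and their differences between groups show unequal change. The log2 ratio of Ccl7 to Ccl2 ran from -6.17 to -2.29 in WT controls and from -1.80 to 0.05 in WT inflamed samples. In Trem1-/- cells it ran from -6.36 to -3.57 in controls and only from -0.002 to 0.24 in the 7 inflamed samples. Ccl7 thus changed more than Ccl2 in both genotypes, and neither pair of groups overlapped. Among inflamed samples, the ratio had an SD of 0.090 on the log2 scale in Trem1-/- cells (n = 7) against 0.81 in WT cells (n = 5). WT inflamed mice 1 to 5 had 0.05, -1.80, -0.02, -0.12 and -1.03, so the wider WT spread rests on mice 2 and 5.

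The log2 ratio of Ccl8 to Ccl2 ran from -5.66 to -4.01 in WT controls and from -7.96 to -7.37 in WT inflamed samples. The Trem1-/- controls ran from -5.93 to -4.13 and the inflamed samples from -9.12 to -8.43. The inflamed samples were lower without overlap in both genotypes, and the Trem1-/- inflamed samples lay below all WT inflamed ones. The log2 ratio of Ccl2 to Ccr2, ligand to receptor, ran from -5.12 to -3.75 in WT controls and from -0.60 to 1.86 in WT inflamed samples. It ran in Trem1-/- cells from -4.74 to -4.15 in controls and from -0.21 to 1.28 in inflamed samples. This ratio separated control from inflamed samples in both genotypes and overlapped between the genotypes in each state.

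**Figure D2:**
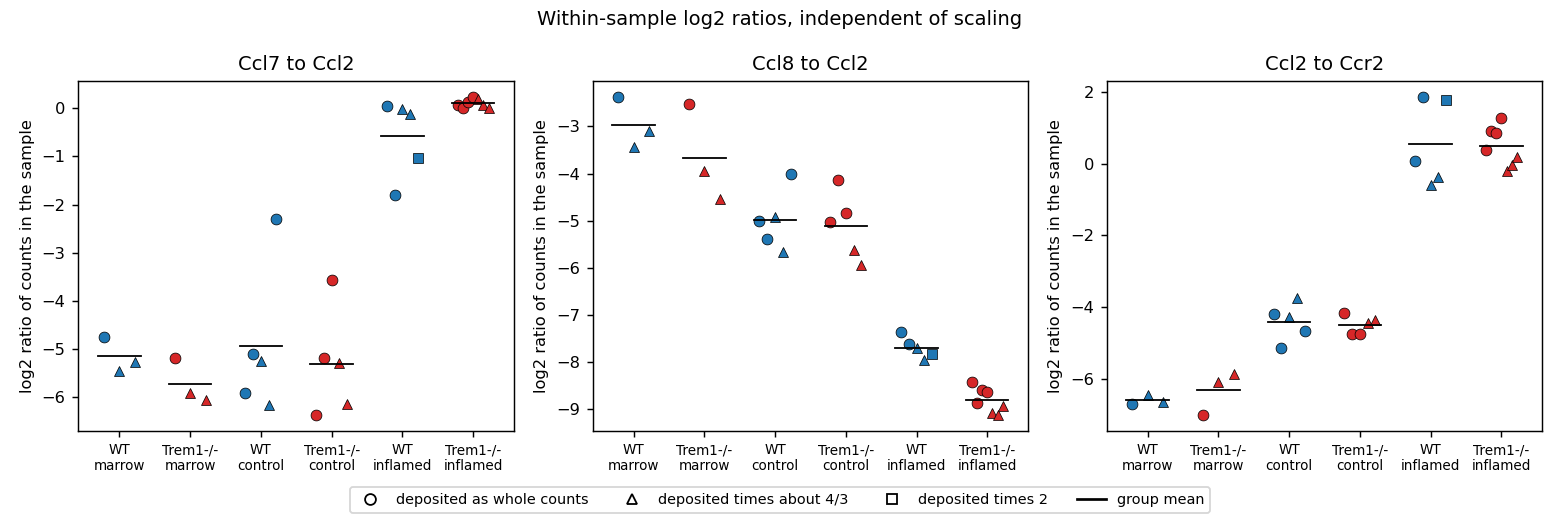
Log2 ratios of counts within each sample, Ccl7 to Ccl2, Ccl8 to Ccl2 and Ccl2 to Ccr2, by group, with 1 point per sample and black lines for group means; marrow Ccl7 lay below background. Control and inflamed samples are separate in all 3 ratios, and the 7 Trem1-/- inflamed samples lie within -0.002 to 0.24 for Ccl7 to Ccl2.

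Trem1-/- and WT cells were then compared in the same state of the intestine. In the inflamed intestine Ccl2 and Ccl7 were higher in Trem1-/- cells than in WT cells, and Ccl8 and Ccr2 did not pass. Here 2 of 4 members were higher, where 32.7% of the 55 genes tested passed, 9.09% higher and 23.6% lower. Both ligands' groups did not overlap, as was the case for 20% of genes. The highest WT sample of Ccl2 had 33187 normalised counts and the lowest Trem1-/- sample 40313, a log2 fold change of 0.92 (adjusted p = 0.00945, SE 0.27, 95% interval 0.36 to 1.47). Within the unmultiplied samples it was 1.04 (adjusted p = 0.0275) and within the 4/3 samples 0.86 (adjusted p = 0.00682). For Ccl7 the highest WT sample had 30983 and the lowest Trem1-/- sample 42205, a log2 fold change of 1.39 (adjusted p = 0.0344, SE 0.50, 95% interval 0.36 to 2.42). Within the unmultiplied samples it was 1.72 (adjusted p = 0.133) and within the 4/3 samples 1.02 (adjusted p = 0.0127).

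Genotype went with the assay's own controls. The geometric mean of the positive control probes did not exceed 729.3 counts in any intestinal sample of WT donors and was never under 766.2 in those of Trem1-/- donors, so what moved these probes and genotype cannot be told apart. Among the multiplied intestinal samples, values of control probes carried the multiplier in those of WT donors only. With scaling to these probes, Ccl2 was at 0.07 (adjusted p = 0.88) and Ccl7 at 0.50 (adjusted p = 0.445), where the median of all 55 genes was -1.21 against -0.28 with housekeeping genes. In the authors' normalised values Ccl2 was at 0.58 (adjusted p = 0.359) and Ccl7 at 1.26 (adjusted p = 0.142). The call of Ccl7 also ended without WT inflamed mouse 1, 2 or 5 or Trem1-/- inflamed mouse 6, at 1.44, 1.16, 1.26 and 1.36. The 6 monocyte genes other than Ccr2 summed to 226902 to 347150 normalised counts in WT inflamed samples and 164101 to 181235 in Trem1-/- ones. Of these 6 genes, 4 were called lower in Trem1-/- cells, 0 higher and 2 did not pass, where 23.6% of the 55 genes tested were lower. The part of this in the difference of the ligands was not tested.

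Ccl8 had a log2 fold change of -0.20 between genotypes in the inflamed intestine (adjusted p = 0.335, 95% interval -0.50 to 0.11), and its sign turned with TMM or DESeq2 scaling. It was -0.12 in the unmultiplied and -0.35 in the 4/3 samples. Ccr2 had one of 0.68 (adjusted p = 0.294, 95% interval -0.29 to 1.65), with 0.89 and 0.40 within those samples. It passed with DESeq2, at 1.14 (adjusted p = 0.0187).

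Without surgery, no member (0 of 4) passed between genotypes, where 3.64% of genes did. Ccl2 differed by 0.03 (adjusted p = 0.919, 95% interval -0.55 to 0.61), Ccl7 by -0.50 (adjusted p = 0.632), Ccl8 by -0.17 (adjusted p = 0.601) and Ccr2 by 0.07 (adjusted p = 0.919) on the log2 scale. Unadjusted p-values were 0.306 or more. The sign of Ccl7 turned to 0.32 without WT control mouse 5. The unmultiplied and the 4/3 samples had opposite signs for 3 members. They gave -0.47 and 0.46 for Ccl2, -0.96 and 0.50 for Ccl7, and -0.61 (adjusted p = 0.315) and 0.87 (adjusted p = 0.00996) for Ccr2, which passed in the 4/3 samples. For Ccl8 they gave -0.27 and -0.01. Scaled to the positive control probes, Ccl8 passed at -1.16 (adjusted p = 0.00263). With that scaling the median of all genes was itself -1.24, and 29 of 55 genes passed.

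The interaction of genotype and inflammation asks whether the responses differed. No member (0 of 4) passed it in edgeR, where 3.64% of genes did. The rise of Ccl2 was larger in Trem1-/- cells by 0.89 (adjusted p = 0.214, SE 0.38, 95% interval 0.09 to 1.69) on the log2 scale, and that of Ccl7 by 1.90 (adjusted p = 0.138, SE 0.72, 95% interval 0.41 to 3.39). Before adjustment, edgeR's p was 0.0311 for Ccl2 and 0.015 for Ccl7. DESeq2 called both, at 0.95 and 2.29, where 7 of 55 genes passed. Ccl2 had 1.50 (adjusted p = 0.0285) within the unmultiplied and 0.40 (adjusted p = 0.399) within the 4/3 samples, and Ccl7 had 2.67 (adjusted p = 0.11) and 0.52 (adjusted p = 0.405). Without WT control mouse 5, Ccl7 was at 1.07. The interaction of Ccl8 was -0.03 (adjusted p = 0.911), with 0.15 and -0.34 within the classes. That of Ccr2 was 0.61 (adjusted p = 0.654, 95% interval -0.80 to 2.01), with 1.50 and -0.47.

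**Figure D3:**
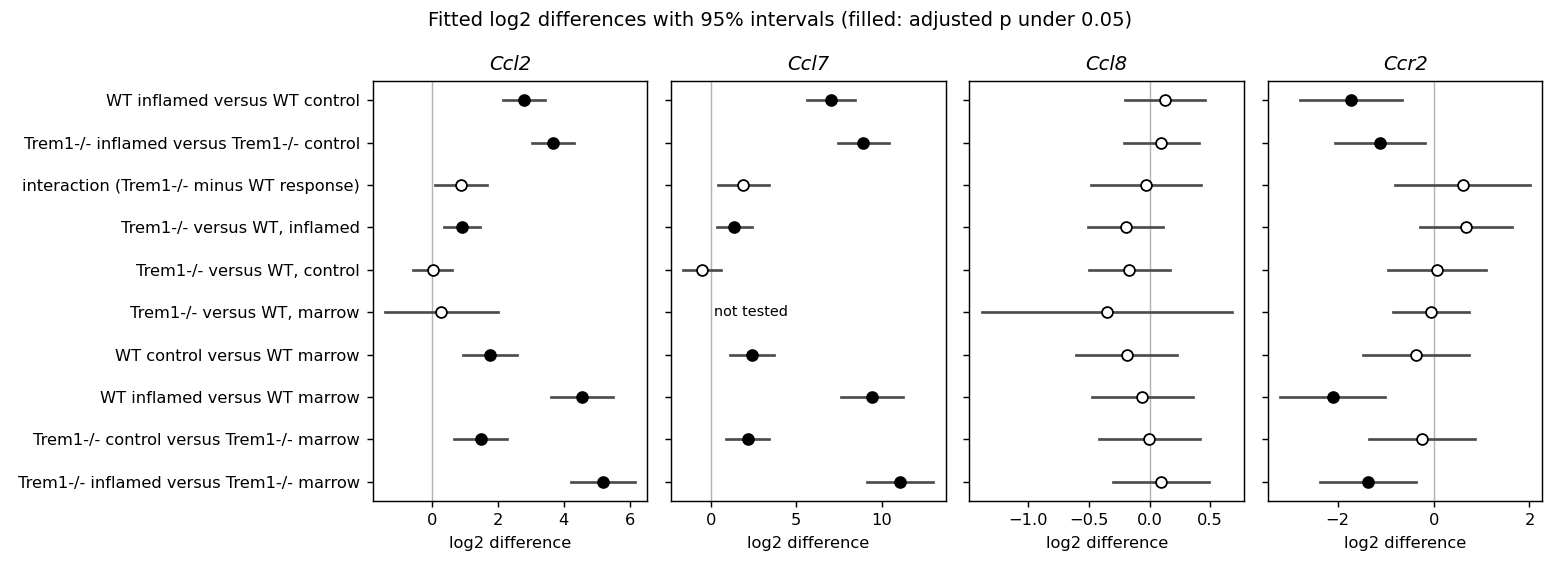
Fitted log2 differences (points) with 95% intervals (lines) of each gene in 10 comparisons, filled where the adjusted p was under 0.05; each panel has its own scale, and the fitted Ccl7 values against marrow rest on marrow counts below background. Ccl2 and Ccl7 are filled in both inflamed against control comparisons and in the genotype comparison of inflamed cells, Ccl8 in none of the 10.

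Bone marrow monocytes gave the level before transfer. Ccl2 lay at 544, 1638 and 1271 normalised counts in WT marrow mice 1 to 3 and at 775, 1505 and 1949 in Trem1-/- ones, below all intestinal samples. Groups without overlap were found for 21.8% of genes between WT control cells and marrow, 41.8% for WT inflamed, 38.2% for Trem1-/- control and 58.2% for Trem1-/- inflamed cells. Ccr2 lay at 56092, 141507 and 125409 in WT and at 98180, 100766 and 112253 in Trem1-/- marrow, which overlapped the control intestine. Ccl8 lay at 105, 152 and 148 in WT and at 135, 97.9 and 83.5 in Trem1-/- marrow, within the intestinal spread in most mice. Ccl7 lay at 20.2 to 37.6 normalised counts and was not above background in any of the 6 marrow samples.

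With housekeeping scaling, cells of the control intestine had more Ccl2 and Ccl7 than marrow, and Ccl8 and Ccr2 did not pass. Against marrow of the same genotype, 2 of 4 members were higher in WT control cells, where 34.5% of genes passed, 30.9% higher and 3.64% lower, and 2 of 4 in Trem1-/- control cells, where the shares were the same 30.9% and 3.64%. Ccl2 had a log2 fold change of 1.76 (adjusted p = 0.00166, SE 0.40) in WT and 1.49 (adjusted p = 0.00415, SE 0.39) in Trem1-/- cells. The median of all genes was itself 0.61 in WT and 0.51 in Trem1-/- cells. The housekeeping factor that divides the counts ran from 1.17 to 1.63 in marrow and from 0.58 to 1.29 in intestinal samples. With marrow set at its background limit, Ccl7 was 3.70-fold higher in WT and 2.69-fold higher in Trem1-/- control cells, by log2 means. These folds are estimates and carry the spread between samples. Before scaling, Trem1-/- control mice 1 and 2 had 28 and 40 counts of Ccl7, against 35, 37 and 41 in Trem1-/- marrow. Background limits were 21.9 and 20.6 in those controls and 44.4 to 59.0 in that marrow. In the edgeR fit, on marrow counts below background, Ccl7 passed in both (adjusted p = 0.00523 and 0.0061). Its 95% intervals there were 1.11 to 3.69 and 0.88 to 3.43 on the log2 scale. Ccr2 had log2 fold changes of -0.38 (adjusted p = 0.628, 95% interval -1.48 to 0.73) and -0.25 (adjusted p = 0.757, 95% interval -1.36 to 0.86). Ccl8 had -0.19 (adjusted p = 0.498) in WT and 0.00 (-0.0015, adjusted p = 0.994) in Trem1-/- cells.

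Other scalings gave other calls here. In the authors' normalised values, Ccl2 of Trem1-/- control cells was at -0.18 against marrow (adjusted p = 0.809), the opposite sign, and Ccl7 at 0.24 (adjusted p = 0.809). Ccl8 (-1.60, adjusted p = 0.00467) and Ccr2 (-1.99, adjusted p = 0.0362) passed as lower. The median of all genes was itself -1.22 in those values, against 0.51 with housekeeping genes, and 28 of 55 genes passed. No member (0 of 4) passed in those values in WT control cells, where 8 of 55 genes did. DESeq2 called Ccr2 lower in WT (-1.15) and Trem1-/- control cells (-1.03), and Ccl8 lower in WT ones (-0.98), as did total counts (-0.54). With positive controls the only member called in Trem1-/- control cells was Ccl8 (-0.98, adjusted p = 0.0278). There 16 of 55 genes passed, and the median of all genes was -0.36. Dendritic cell markers moved with these comparisons too. The 4 with values summed to 3299 to 21216 normalised counts in WT marrow and 1761 to 5516 in Trem1-/- marrow, below all intestinal controls, and 2 of them were called higher in WT and 3 in Trem1-/- control cells. Their part in the difference from marrow was not tested.

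Marrow mouse 1 of each genotype was unmultiplied and the other two were 4/3 samples. Fits within the unmultiplied samples therefore have 1 marrow mouse per genotype, take the spread from the other groups, and assume that this mouse varies like them. For control cells of WT and Trem1-/- donors they gave 2.70 and 1.72 for Ccl2, 0.23 and -0.41 for Ccl8, and 0.71 and -0.71 for Ccr2, and Ccl7 did not pass (adjusted p = 0.102 and 0.24). Within the 4/3 samples the values were 1.61 and 1.82 for Ccl2, -0.42 and 0.29 for Ccl8, and -0.93 (adjusted p = 0.00284) and 0.27 for Ccr2. Both Ccl2 values passed there, and Ccl7 had adjusted p of 0.00733 and 0.000186.

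Cells of the inflamed intestine were farther from marrow. In WT cells 2 members were higher and 1 lower, where 49.1% of genes passed, 36.4% higher and 12.7% lower, and in Trem1-/- cells the same numbers, where 58.2% passed, 38.2% higher and 20% lower. Ccl2 had log2 fold changes of 4.56 (adjusted p = 6.04e-09) in WT and 5.18 (adjusted p = 4.88e-10) in Trem1-/- cells. The median of all genes was 0.94 in WT and 0.31 in Trem1-/- cells. With marrow set at its background limit, Ccl7 was 541.9-fold higher in WT and 1600-fold higher in Trem1-/- inflamed cells, by log2 means. These folds too are estimates and carry the spread between samples. In the edgeR fit, on marrow counts below background, Ccl7 passed in both (adjusted p = 1.84e-09 and 1.99e-10). The lower ends of its 95% intervals there were 7.601 in WT and 9.146 in Trem1-/- cells on the log2 scale. Ccr2 was lower, by log2 fold changes of -2.10 (adjusted p = 0.00153, SE 0.53) and -1.37 (adjusted p = 0.0194, SE 0.49). The second of these ended without Trem1-/- marrow mouse 3, at -1.31 (adjusted p = 0.0556). Ccl8 had -0.06 (adjusted p = 0.807) and 0.10 (adjusted p = 0.681). It was called lower than WT marrow with TMM (-0.90), total counts (-0.61) and DESeq2 (-1.08), where the medians of all genes were 0.05, 0.42 and -0.17. It was called lower than Trem1-/- marrow with total counts (-0.61) and DESeq2 (-0.83), where the medians were -0.40 and -0.41. Within the unmultiplied samples, again with 1 marrow mouse per genotype, Ccl2 had 5.35 and 5.88, Ccl8 0.25 and -0.24, and Ccr2 -2.02 and -1.94. Within the 4/3 samples Ccl2 had 4.47 and 5.08 and Ccr2 -1.57 and -0.84, all past the threshold, as was Ccl7 (adjusted p = 4.99e-09 and 2.41e-09), and Ccl8 had -0.09 and 0.28. The dendritic cell markers were called higher than in marrow for 2 of 4 genes in each genotype. These comparisons share their marrow and intestinal samples with those above.

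Between the marrow groups, 0 of the 3 members tested passed, where 0% of 54 genes did in edgeR. There 3 genes had an unadjusted p under 0.05, and 2 genes passed in DESeq2. Ccl2 differed by 0.29 (adjusted p = 0.913, 95% interval -1.41 to 2.00), Ccl8 by -0.35 (adjusted p = 0.913, 95% interval -1.38 to 0.68) and Ccr2 by -0.05 (adjusted p = 0.951, 95% interval -0.85 to 0.74). Within the 4/3 samples, with 2 mice per genotype, the values were 0.25, -0.72 and -0.33. With 3 mice per genotype the intervals are wide.

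The mean level of Ccl2 rose from WT marrow (1151 ± 557) through Trem1-/- marrow (1410 ± 593), WT control and Trem1-/- control to WT inflamed and Trem1-/- inflamed cells. In this order the marrow groups, and likewise the control groups, did not differ beyond their spread. For Ccl7 the control groups came before WT inflamed and Trem1-/- inflamed cells. Its marrow groups were both below background and have no order, and the order of its control groups rests on WT control mouse 5. For Ccr2 the order ran from WT inflamed and Trem1-/- inflamed through WT control and Trem1-/- control to Trem1-/- marrow (103733 ± 7492) and WT marrow (107669 ± 45387), and none of the neighbours tested in it were called different. Trem1-/- inflamed cells next to WT control cells was not a tested comparison. The 6 group means of Ccl8 lay between 106 and 135, with overlap between all neighbours.

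The panel genes whose group means followed each member most closely were found over 6 groups, by the root mean square difference of centred log2 means among 54 other genes. For Ccl2, whose own log2 means spanned 5.60, they were the cytokine Il10 (0.38), the neutrophil attractant Cxcl1 (0.58) and the cytokine Il6 (0.70). For Ccl7 they were Arg1 (0.45), an arginine-degrading enzyme, Il6 (1.85) and Cxcl1 (1.99). Since 2 of the 6 group means of Ccl7 lay below background, its profile is not measured in marrow and these distances are uncertain. For Ccr2, which spanned 2.50, they were the signalling adaptor Card9 (0.50), the macrophage marker Emr1 (0.51) and the gut-homing integrin chain Itgb7 (0.63). Ccl8 spanned 0.36, and its nearest genes, Stat6 (0.29), Cd68 (0.32) and Tgfb1 (0.33), were almost as far from it as its own range.

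**Figure D4:**
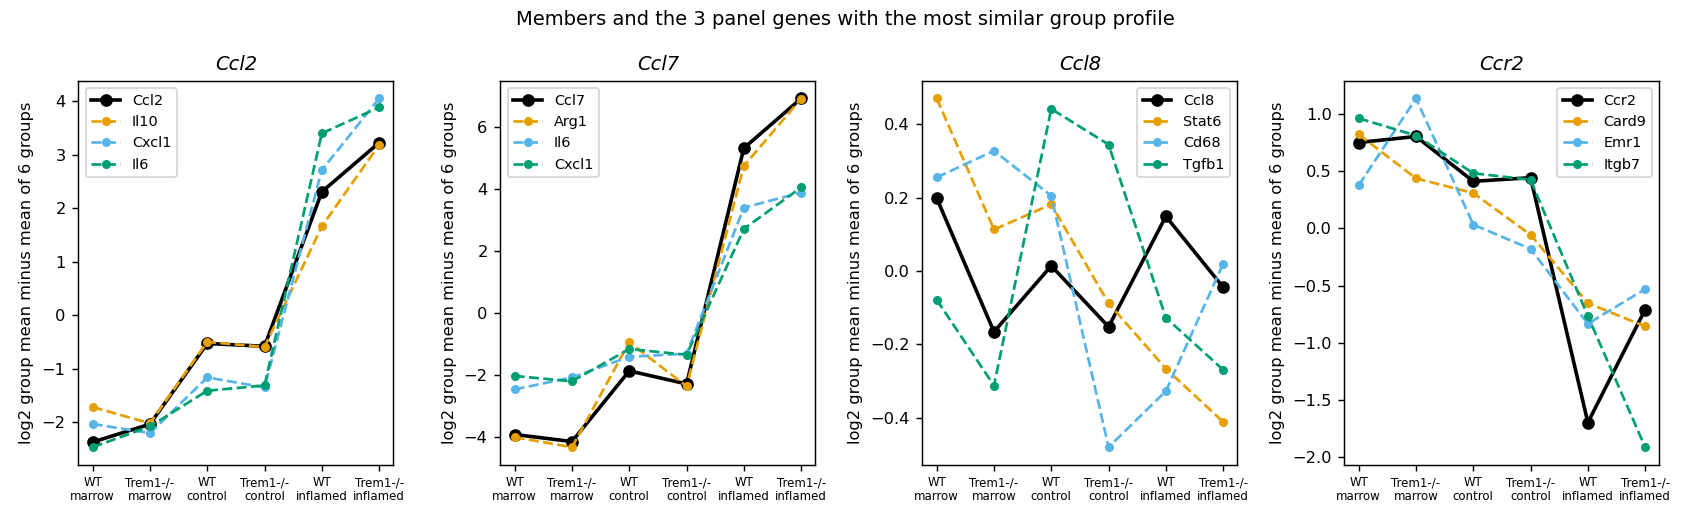
Log2 group means of each member (black) and of the 3 panel genes nearest to it (dashed), each centred on its mean over the 6 groups; the scale differs between panels. Il10 follows Ccl2 within 0.38 and Arg1 follows Ccl7 within 0.45 on average (the marrow means of Ccl7 lay below background), while the profile of Ccl8 spans only 0.36.

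Of the 12 chemokine and chemokine receptor genes with values, 8 are not members. In WT cells of the inflamed intestine 1 of these rose, 3 fell and 4 did not pass. Cxcl1 rose by 3.90 on the log2 scale, and Cx3cr1, the fractalkine receptor, fell (-3.70), as did the interferon-induced chemokines Cxcl9 (-4.57) and Cxcl11 (-2.28). In Trem1-/- cells 2 rose, Cxcl1 (5.47) and the interferon-induced Cxcl10 (1.71), 3 fell and 3 did not pass. Those that fell were Cx3cr1 (-4.82), Cxcl9 (-3.30) and Ccr7 (-1.46). The median log2 fold change of all 12 was -0.45 in WT and -0.27 in Trem1-/- cells, against -0.08 and 0.10 over the 55 genes tested. Between genotypes in the inflamed intestine 1 of the 8, Cxcl1, was higher in Trem1-/- cells (1.30, adjusted p = 0.0046), and 7 did not pass.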

How the data were processed

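Per the labels' protocols, cDNA of sorted cells was pre-amplified and hybridised to NanoString probe pairs. The authors deposited raw barcode counts, without molecular identifiers. These were whole counts in 14 of 28 samples, and in the other 14 each deposited gene value was an expected count, a whole number times 1.33 (8 samples), 1.333 (5) or 2 (1). Values of control probes carried the multiplier in 5 of these 14 samples and not in 9, and were divided only where they did. The 5 were all the multiplied intestinal samples of WT donors. In the intestine the multiplier was 1.333 or 2 in WT and 1.33 in Trem1-/- samples. How counts were deposited and genotype therefore cannot be told apart there. In the multiplied WT marrow samples the control probes did not carry the multiplier. Each WT intestinal sample had values for 60 targets and each WT marrow sample for 58. Deposit and tissue therefore cannot be told apart between WT intestine and WT marrow either. Dividing the multipliers out gave whole numbers for 100% of values, within 0.0001. The authors' normalised table, a deposited score without a stated unit, entered only as an alternative. Which software counted the barcodes is not given in the sources used here.

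Counts were scaled to 3 housekeeping genes (Actb, Gapdh and Rpl19) by their geometric mean. The background limit was the mean of 5 negative control probes plus 2 SD. Differences were tested in R 4.3.3 with edgeR 4.0.16 (quasi-likelihood, two-sided), with Benjamini-Hochberg adjustment over all genes above background in at least 3 samples (55, or 54 in marrow) and a threshold of 0.05. The intestinal groups shared 1 fit of 22 samples, marrow genotypes had 1 fit of 6, and intestine against marrow 1 fit of 28. Alternatives used DESeq2 1.42.0, limma 3.58.1 on log2(value + 1) or log2(value + 20), other scalings and filters, blocks, and the omission of each mouse. In the block for the multiplier class, WT inflamed mouse 5 is alone in its class and drops out. Tables and figures were made with Python 3.11.15, pandas 2.3.3, numpy 2.4.6 and matplotlib 3.10.9. The fit was tested on simulated counts for WT inflamed against control cells. It recovered 5 of 20 genes changed 2-fold and 19 of 20 changed 8-fold, and called 0 and 1 unchanged genes. Changes near 2-fold can therefore be missed. No pair of samples in a group was a copy (chi-square per degree of freedom of 264.9 or more).

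The 4 members and the lists of chemokine genes and cell type markers were chosen with earlier results of these data known. Named genes were the 4 members, the panel's other chemokine and receptor genes that passed in inflamed against control cells, and the 3 genes nearest to each member. Mouse numbers mark separate mice, which shared no animal across groups. In the marrow comparison alone all 3 same-numbered pairs deviated together, with correlations of 0.198 to 0.794. The marrow values given above are from a fit without pairing, and a block for the mouse number was an alternative. Both marrow mice numbered 1 were unmultiplied and the others multiplied, so mouse number and multiplier class cannot be told apart there. Precision is limited by 3 to 7 mice per group, and depth covers counting error only.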

Additional observations from a re-analysis of the deposited data

Results flagged for a closer look

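Of 28 groups of values tested for a sample far from the others, 2 were marked, and chance marks about 1 in 20. Both came from WT control mouse 5. Its Ccl7 level was 442.2 normalised counts, where the next highest WT control had 115.8, and the gap took a share of 0.88 of the group's range against a critical value of 0.71. Its log2 ratio of Ccl7 to Ccl2 was -2.29, where the next was -5.09, with a gap of 0.723 of the range. The same mouse had the lowest Ccl2 (2160) and the lowest Ccr2 (54844) of the WT controls.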

How the results depend on the processing

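The rises of Ccl2 and Ccl7 in the inflamed intestine kept direction and call under all 29 alternatives in WT cells (2.39 to 3.40 and 6.15 to 8.49) and all 31 in Trem1-/- cells (3.27 to 4.69 and 8.54 to 10.1). Their rises over marrow in inflamed cells did so too, and no other result with a call was kept throughout except lower Ccr2 of WT inflamed cells against marrow. The cause of the changes below was not tested. Several scalings moved the median of all genes, given here for TMM, total counts, positive controls and the authors' values in turn. In WT inflamed against control it moved by -0.47, -0.21, 0.32 and 0.58, and in Trem1-/- cells by -0.35, -0.36, 0.46 and 0.91. Between genotypes in the inflamed intestine it moved by 0.54, 0.14, -0.93 and -0.25. Against marrow it moved by -0.63, -0.37, -0.24 and -0.54 in WT control cells, and by -0.61, -0.41, -0.87 and -1.73 in Trem1-/- control cells. In inflamed cells against marrow it moved by -0.89, -0.52, -0.11 and -0.33 in WT, and by -0.68, -0.71, -0.41 and -0.60 in Trem1-/- cells.

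Ccr2 in WT inflamed against control cells lost its call with positive-control scaling (-1.33) and in the authors' values (-1.55), and ran from -2.09 to -1.47 without each mouse. In Trem1-/- cells it lost it with positive controls (-0.66), without Gapdh (-1.06) or Rpl19 (-0.94), with limma at pseudocount 1 (-1.15) or 20 (-1.15) or after background subtraction (-1.15), in the authors' values (-0.27) and with the mouse number as a replicate block (-1.33, adjusted p = 0.0637). It ran from -1.27 to -0.93 without each mouse and was called in 5 of 12 such fits. Ccl8 changed sign in WT cells with TMM (-0.41), total counts (-0.076), DESeq2 (-0.016) or without Actb (-0.089). It did so in Trem1-/- cells with TMM (-0.25), total counts (-0.27), DESeq2 (-0.047), without Actb (-0.16) and within the 4/3 samples (-0.0093), and it passed in the authors' values (0.98).

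Between genotypes in the inflamed intestine, Ccl2 lost its call with positive controls (0.074) and in the authors' values (0.58). Ccl7 lost it with positive controls (0.50), without Rpl19 (1.31), in the authors' values (1.26), under the replicate block (1.38, adjusted p = 0.0653), under a block for the multiplier class (1.28) and within the unmultiplied samples (1.72), and ran from 1.16 to 1.58 without each mouse. Ccl8 changed sign with TMM (0.42) and DESeq2 (0.23) and passed with positive controls (-1.03), where the median of all genes was -1.21. Ccr2 changed sign with positive controls (-0.19) and passed with DESeq2 (1.14). The count of members called, 2, became 1 with positive controls, without Rpl19, with either block and within the unmultiplied samples, and 0 in the authors' values. Of all 55 genes, 29 passed with positive controls, 19 without Rpl19 and 17 with the replicate block. With the block for the multiplier class 15 passed, within the unmultiplied samples 19 and in the authors' values 13. The count of members ran from 1 to 2 without each mouse, and 14 to 17 genes passed in the fits with 1 member.

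In the interaction, Ccl2 passed with TMM (1.11), DESeq2 (0.95), the multiplier class as a block (1.04) and within the unmultiplied samples (1.50), and Ccl7 with DESeq2 (2.29). The count of members called, 0, therefore became 1 in 3 of these settings and 2 with DESeq2. Of all 55 genes, 3 passed with TMM, 4 with that block, 16 within the unmultiplied samples and 7 with DESeq2. Ccl8 changed sign with TMM (0.17), positive controls (0.13), without Gapdh (0.037), in the authors' values (0.29), within the unmultiplied samples (0.15) and without some mice (-0.097 to 0.043). Ccr2 changed sign within the 4/3 samples (-0.47).

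In control intestine the count of 0 became 1 with positive controls and within the 4/3 samples, where 29 and 13 of 55 genes passed. For WT control cells against marrow the count of 2 became 4 with DESeq2, where 26 of 55 genes passed. It became 0 in the authors' values and 1 when only the groups compared were fitted, where 8 of 55 passed in each. The count was 3 with total counts and within the 4/3 samples, where 17 of 55 passed in each. For Trem1-/- control cells the count became 3 with DESeq2, where 29 of 55 genes passed. It became 1 with TMM (20 of 55), positive controls (16 of 55) and only the groups compared (20 of 55). Ccl2 changed sign there in the authors' values (-0.18, not called), where the 2 members called were Ccl8 and Ccr2. In those values 28 of 55 genes passed, and the median of all genes was -1.22. With positive controls the 1 called was Ccl8 (-0.98), where that median was -0.36. Ccl8 of Trem1-/- inflamed cells against marrow reversed, and passed, with total counts (-0.61) and DESeq2 (-0.83). In WT inflamed cells Ccl8 passed with TMM, total counts and DESeq2, so that all 4 members were called there. Of 55 genes, 32, 32 and 37 passed in those WT settings, and 39 and 42 in those of Trem1-/- cells.

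Same-numbered mice deviated together, with correlations over 0.1, in 1 of 5 pairs of WT inflamed and control mice and 4 of 5 Trem1-/- pairs. They did so in 2 of 5 pairs of genotypes in either state. The Trem1-/- pairs ran from -0.29 to 0.589, and what same-numbered mice share beyond the number was not tested. In marrow the replicate block called no member, and elsewhere it changed no other call than those given. Low counts limit the size of the Ccl7 changes from control and marrow.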
